A study of Saccharomyces cerevisiae with 51 samples.

Results

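The deletion strains of 4 genes that regulate transcription around Ste12, the activator at the end of the yeast pheromone pathway, were followed through a sort for cells without reporter fluorescence. The genes are *DIG1* (YPL049C), *DIG2* (YDR480W), *TEC1* (YBR083W), and *KAR4* (YCL055W), and their strains were taken by systematic name, as 4 of the 6128 deletion mutants in the barcode table. All 4 were present before sorting and all 4 passed the minimum of 50 reads that admitted a mutant to the tests. In the Gfp- pools *dig1*Δ was enriched with and without α-factor, and no enrichment of *dig2*Δ, *tec1*Δ, or *kar4*Δ passed the test.

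The study screened a pool of yeast knockout (YKO) strains for altered expression of *FUS1*, a mating gene that α-factor induces. The pool is labelled as *MATa* haploids, mostly derived from BY4741 with a few from BY4740, and each strain has 1 gene deleted and is marked by barcodes (UPTAG and DNTAG) that flank the deletion. The ploidy of the 4 strains was not checked here. The pFUS1-GFP-LEU2 reporter was introduced into the whole pool and targeted to *BAR1*, so in all groups a correct integration also removes the α-factor protease Bar1. The pool was grown in medium without leucine and was either left to grow vegetatively (Un) or given α-factor at 10 nM during 2 hr (In), and cells without fluorescence (Un Gfp- and In Gfp-) were sorted, regrown to saturation, and compared with the unsorted pools (Un presort and In presort). Each of the 4 groups had 3 replicates, and an UPTAG library and a DNTAG library were made from each. Each gene is represented by 1 strain of the collection. The counts identify barcodes, so they check neither the deletion nor the reporter level of a strain, and fewer sorted cells and slower regrowth cannot be told apart.

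In haploid cells α-factor activates a receptor, a G protein, and a MAP kinase cascade that ends at the kinases Fus3 and Kss1. Dig1 and Dig2 are related proteins that bind Ste12 and hold it inactive, and the kinases relieve this inhibition. Ste12 then activates pheromone-responsive genes such as *FUS1*. Tec1, a TEA-domain factor, joins Ste12 at the genes of filamentous growth, and Dig1 also takes part in that complex. Kar4 acts with Ste12 at genes of nuclear fusion (karyogamy), and it is also part of the mRNA methylation complex of meiosis.

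The libraries differed in depth. Summed over the tags, the presort libraries held 547624 to 10467729 reads and the Gfp- libraries 192483 to 13140634. The number of reads limits the precision of the values below, and so does the spread between libraries. The median mutant had 89 to 1627 reads in a presort library but 1 to 27 in a Gfp- library. In In Gfp- replicate 2, 46.0% of the 3412 mutants that were well measured before sorting had no read at all. The methods call the replicates biological, and the p-values measure the spread between these libraries. No molecular identifiers marked the templates of the PCR, so limits from read numbers cover counting error only.

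Before sorting, *dig1*Δ was among the rarer strains. Its level was 28.3, 22.5, and 21.3 CPM (reads scaled to a library total of 1000000) in Un presort replicates 1 to 3, and 28.3, 28.0, and 25.6 in In presort. The other strains were near or above the median mutant, whose mean level was 160 CPM in Un presort and 149 in In presort. *dig2*Δ averaged 301 ± 40.7 CPM (SD, n = 3) in Un presort, *tec1*Δ 292 ± 49.6, and *kar4*Δ 164 ± 28.7. Thus *dig1*Δ ranked 3248th of 3414 mutants in Un presort and 3193rd of 3553 in In presort, while *dig2*Δ and *tec1*Δ stood in the upper part of both pools.

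After sorting, *dig1*Δ was the only strain of the 4 with a larger share of the reads. In Un Gfp- it held 1352, 191, and 22 reads in replicates 1 to 3, or 228, 142, and 114 CPM, against the 157, 41, and 53 reads of Un presort. In In Gfp- it held 3791, 218, and 43 reads, or 288, 160, and 142 CPM, against 296, 162, and 14 in In presort. The lowest sorted library was above the highest presort library in both conditions. A share higher in every sorted replicate was seen for 3.72% of all mutants tested in Un Gfp- and for 3.83% in In Gfp-. The mean share rose 6.71-fold in Un Gfp- and 7.22-fold in In Gfp-, while the share of the median mutant was 25.2-fold and 44.1-fold lower after sorting.

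**Figure D1:**
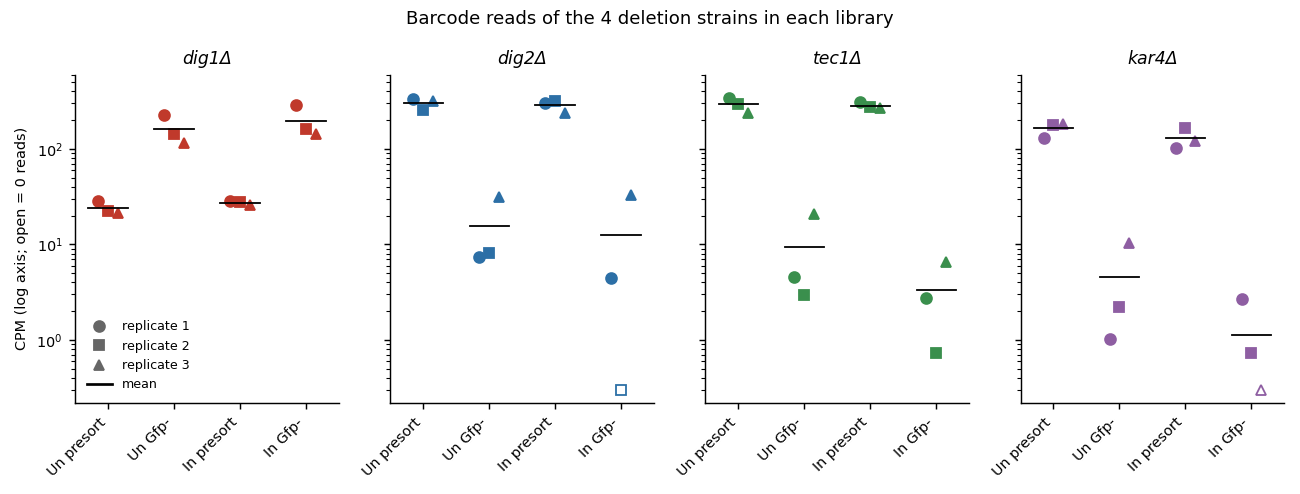
CPM (log axis) of each strain in the 3 libraries of each group, with replicate numbers as symbols, the group mean as a bar, and open symbols for libraries without reads. All sorted values of *dig1*Δ lie above its presort values, and all sorted values of *dig2*Δ, *tec1*Δ, and *kar4*Δ lie below theirs. Over all mutants tested, 94.2% (Un) and 94.4% (In) were lower in every sorted replicate, and 3.72% and 3.83% higher.

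The tests scale the libraries by TMM, which sets the bulk of mutants near 0, so that a fold change is relative to the bulk. On that scale *dig1*Δ was enriched by 7.93 on the log2 scale in Un Gfp- (SE 0.905, edgeR quasi-likelihood test, adjusted p = 0.000417), where it ranked 70th of 3414 mutants. In In Gfp- the log2 fold change was 8.71 (SE 1.04, edgeR adjusted p = 1.18e-05), at rank 70 of 3553. It was the only one of the 4 strains called in either comparison. The TMM factors of replicates 1 to 3 were 0.108, 0.126, and 0.547 in Un Gfp- and 0.0849, 0.104, and 0.414 in In Gfp-. Scaled over the 12 libraries, *dig1*Δ was at 10.9, 9.96, and 7.53 log2 CPM in Un Gfp-. In In Gfp- it was at 12.0, 10.8, and 8.52. Its presort values ranged from 1.87 to 2.40, and its sorted values were lowest in replicate 3 of both conditions. Over all mutants tested, 12.2% (Un) and 15.2% (In) were called higher, and 5.27% and 10.1% were called lower. These counts depend on single libraries: without Un presort replicate 1 the lower calls in Un Gfp- numbered 5 in place of 180, and without In Gfp- replicate 1 the calls in In Gfp- numbered 338 higher and 35 lower against 540 and 359 with all libraries. When total counts replaced TMM, the log2 fold changes of *dig1*Δ were 2.76 and 2.85 and the median of all mutants moved from −0.55 to −5.32 (Un) and from −0.69 to −6.17 (In). Relative to that median, *dig1*Δ was then at 8.08 and 9.03.

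Replicate 1 was sequenced on a HiSeq 2000 and replicates 2 and 3 on a HiSeq 2500. Within the HiSeq 2500 libraries the log2 fold change of *dig1*Δ was 7.31 in Un Gfp- (edgeR adjusted p = 0.0996) and 7.85 in In Gfp- (adjusted p = 0.0259). No mutant was called in Un Gfp- with these 4 libraries, where 611 had an unadjusted edgeR p under 0.05. The call in Un Gfp- was also lost without replicate 2 (log2 fold change 7.90, edgeR adjusted p = 0.0621), again with no mutant called and 798 at an unadjusted p under 0.05. The HiSeq 2000 holds 1 library of each group and gives no test.

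**Figure D2:**
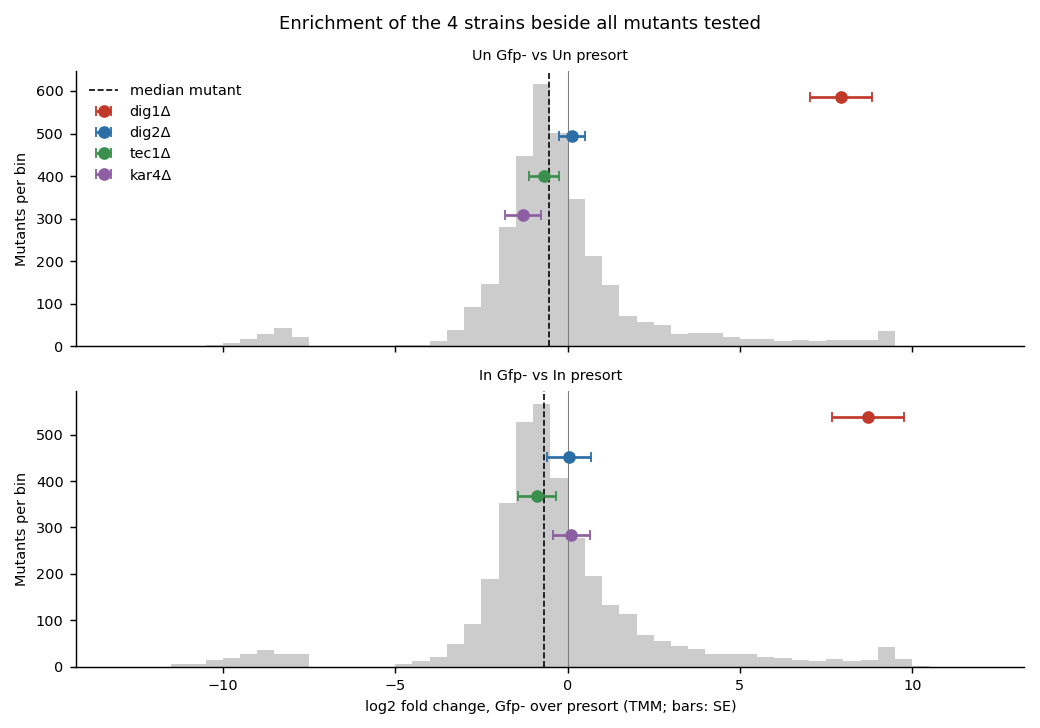
Histograms of the log2 fold change (Gfp- over presort, TMM scaling) of all mutants tested, with the 4 strains as points and bars for the SE. *dig1*Δ lies at 7.93 and 8.71, in the upper tail, while *dig2*Δ, *tec1*Δ, and *kar4*Δ lie within the main body around the dashed median (−0.55 and −0.69).

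The position of a strain within its own library needs no scaling between libraries. Mutants with equal reads were placed at the middle of their tie, so in sparse Gfp- libraries the position also depends on depth. Among the 3412 mutants measured in both conditions, *dig1*Δ was at the 8.44th, 4.24th, and 4.32nd percentile in Un presort and at the 96.0th, 95.1st, and 92.1st in Un Gfp-. In the induced libraries it went from the 8.38th, 7.77th, and 5.53rd percentile to the 96.3rd, 95.4th, and 94.6th. *dig2*Δ stayed between the 64.9th and 73.5th percentile in all 6 uninduced libraries, sorted or not. *tec1*Δ was at the 64.0th to 73.3rd percentile in the presort libraries of both conditions and at the 40.6th to 58.8th in the Gfp- libraries. Its 6 sorted values were all below its 6 presort values, but the share of all mutants that did the same was not counted. In In Gfp- replicate 2 its position rested on 1 read, the median of that library.

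**Figure D3:**
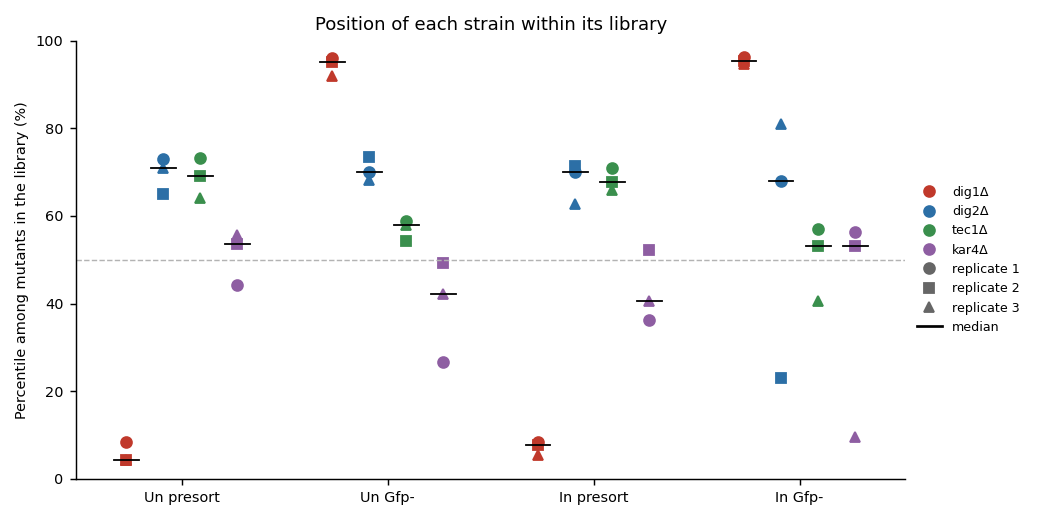
Percentile of each strain among 3412 mutants in each library, with replicate numbers as symbols and the median of 3 as a bar. *dig1*Δ moves from below the 9th percentile to above the 92nd, and the In Gfp- values of *dig2*Δ (23.0 to 81.0) and *kar4*Δ (9.45 to 56.3) are widely spread. The lowest value of each of these 2 strains is a library without reads of it, placed at the middle of the tied mutants.

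*dig2*Δ, which lacks the paralogous inhibitor, was not called in either pool. It had 1848, 466, and 784 reads in Un presort replicates 1 to 3 and 44, 11, and 6 in Un Gfp-. In the induced libraries it had 3133, 1849, and 129 reads before sorting and 58, 0, and 10 after. The 0 among 1360995 reads allows a share of up to 0.000220% (3 reads, counting error only). Its share was lower in every Gfp- library than in any presort library, as it was for 94.2% (Un) and 94.4% (In) of all mutants tested. The mean share was 19.3-fold lower in Un Gfp- and 22.8-fold lower in In Gfp-, less than for the median mutant, and the log2 fold changes on the TMM scale were 0.13 (SE 0.364, edgeR adjusted p = 0.810) and 0.04 (SE 0.640, adjusted p = 0.960). With total counts they were −4.61 and −5.02, and 0.71 and 1.15 above the median mutant.

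The ratio of *dig1*Δ to *dig2*Δ reads within a library shows the difference between the paralogs directly. For each *dig2*Δ read there were 0.0850, 0.0880, and 0.0676 *dig1*Δ reads in Un presort and 30.7, 17.4, and 3.67 in Un Gfp-. In the induced libraries the ratio was 0.0945, 0.0876, and 0.109 before sorting, and after sorting it was 65.4 in replicate 1, at least 72.7 in replicate 2, and 4.30 in replicate 3. The bound divides by the floor of 3 reads in that library. The rarer strain of the pair before sorting was the more abundant in every Gfp- library. On the log2 scale the mean ratio was higher after sorting by 7.23 in Un and by 8.97 in In, with 0.5 added to each count. In an exact permutation test of 3 against 3 libraries, the two-sided p was 0.1 for both, which is the smallest p this design allows (0.14 after adjustment over 14 ratio comparisons).

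Kss1 and Ste50 gave further reference strains, as did the MAP kinase kinase Ste7. Unphosphorylated Kss1 takes part with the Dig proteins in holding Ste12 inactive, and *kss1*Δ started at a similar abundance to *dig1*Δ, with 1.15, 0.932, and 1.00 *dig1*Δ reads per *kss1*Δ read in Un presort and 1.18, 1.07, and 1.40 in In presort. After sorting the ratio was 26.5, 13.6, and 7.33 in Un Gfp-, and in In Gfp- it was 62.1, 36.3, and at least 14.3. *kss1*Δ was itself called higher, at a log2 fold change of 3.88 (SE 0.468, edgeR adjusted p = 0.000451) in Un Gfp- and 3.50 (SE 0.518, adjusted p = 6.29e-05) in In Gfp-. With total counts its sign turned, to −1.23 and −2.48, while that of *dig1*Δ did not. The median of all mutants was then lower still, at −5.32 and −6.17. The log2 ratio to *ste7*Δ was lower after sorting by 1.66 in Un and by 0.89 in In, with no overlap between the groups in either.

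*ste50*Δ lacks the adaptor of the kinase Ste11. There were 0.0356, 0.0399, and 0.0383 *dig1*Δ reads per *ste50*Δ read in Un presort and 0.0793, 0.0757, and 0.0645 in Un Gfp-. In the induced libraries the ratio was 0.0363, 0.0421, and 0.0342 before sorting and 0.594, 0.626, and 0.426 after. The log2 ratio was thus higher after sorting by 0.94 in Un and by 3.84 in In. The ratios of In Gfp- lay above those of Un Gfp- without overlap, a difference that was not itself tested. The comparisons with the presort libraries each had an exact permutation p of 0.1, the smallest possible. The interaction terms of *dig1*Δ and *ste50*Δ, 0.84 and −2.10, did not pass the edgeR test (adjusted p = 0.885 and 0.527).

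**Figure D4:**
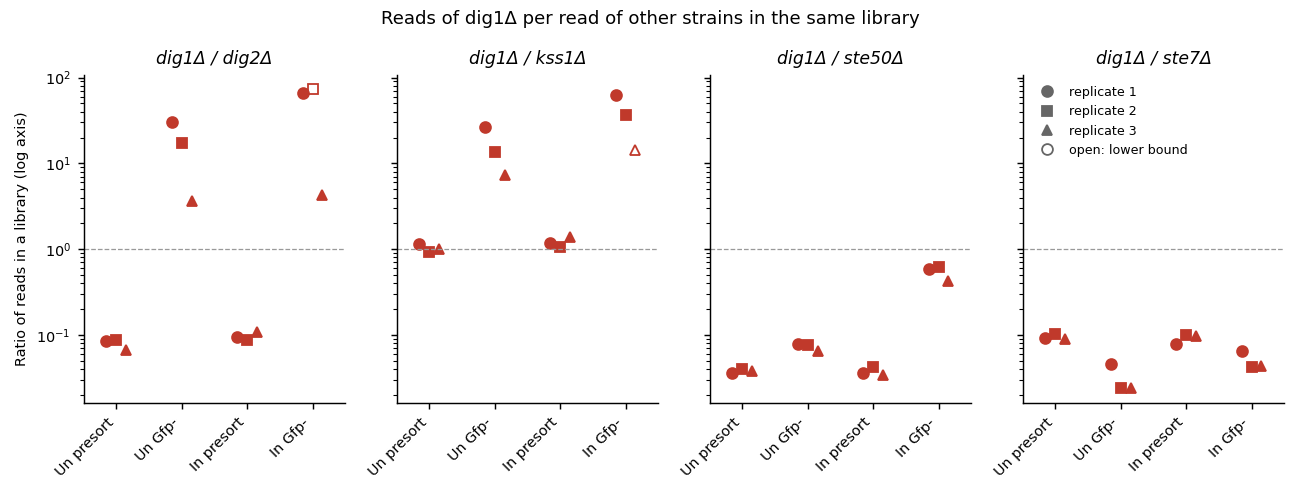
Reads of *dig1*Δ per read of *dig2*Δ, *kss1*Δ, *ste50*Δ, and *ste7*Δ within each library (log axis), with replicate numbers as symbols and open symbols for lower bounds where the second strain had no read. The ratio to *dig2*Δ and *kss1*Δ is higher in every Gfp- library, and the ratio to *ste7*Δ is lower.

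*tec1*Δ had 1878, 543, and 599 reads in Un presort and 27, 4, and 4 in Un Gfp-. In the induced libraries it had 3204, 1597, and 145 reads before sorting and 36, 1, and 2 after. Its share was lower in every sorted than any presort library, as for 94.2% (Un) and 94.4% (In) of all mutants tested. The mean share was 31.0-fold lower in Un Gfp- and 84.0-fold lower in In Gfp-, further than for the median mutant in both, but on the TMM scale neither log2 fold change passed the test, at −0.69 (SE 0.432, edgeR adjusted p = 0.262) and −0.89 (SE 0.559, adjusted p = 0.225). Set against *dig2*Δ within a library, the log2 ratio of *dig2*Δ to *tec1*Δ was higher by 0.81 in Un Gfp- than in Un presort (exact permutation p = 0.1, the smallest possible, with no overlap) and by 0.39 in In Gfp- than in In presort (exact permutation p = 0.7).

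*kar4*Δ was the least abundant of the 4 in the sorted pools. It had 728, 325, and 458 reads in Un presort and 6, 3, and 2 in Un Gfp-. In In presort it had 1064, 968, and 67 reads, and in In Gfp- it had 35, 1, and 0, where the 0 among 302991 reads allows a share of up to 0.000990%. The sorted shares were all below the presort shares, as for 94.2% (Un) and 94.4% (In) of all mutants tested. With these few reads a small change relative to the bulk was not detectable. The log2 fold change was −1.30 in Un Gfp- (SE 0.525, edgeR adjusted p = 0.105) and 0.11 in In Gfp- (SE 0.550, adjusted p = 0.879), although the mean share was 36.2-fold and 115-fold lower. The In value depended on In Gfp- replicate 1, which held the 35 reads. Without that library it was −2.43 (edgeR adjusted p = 0.231).

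The 2 tags of a strain can be read as separate measurements of the same cells. For *dig1*Δ they gave like values, with log2 fold changes of 7.90 from UPTAG and 7.72 from DNTAG counts in Un Gfp-, and 7.55 and 8.55 in In Gfp-, all called in the edgeR test (adjusted p = 2.79e-05, 0.00265, 2.84e-05, and 4.78e-05). For *tec1*Δ and *kar4*Δ the tags disagreed in In Gfp- replicate 1, where the 36 and 35 reads were all DNTAG reads. There 48.2% of the 3412 mutants had no UPTAG read and 11.3% no DNTAG read, although the library held 5215305 UPTAG reads. From UPTAG counts alone *tec1*Δ was at −4.53 and *kar4*Δ at −4.31 in In Gfp- (edgeR adjusted p = 0.00269 and 0.00734), and from DNTAG counts alone at −0.31 and 0.61 (adjusted p = 0.551 and 0.303). In In Gfp- the UPTAG fit called 1610 of 3455 mutants lower and 448 higher, and the DNTAG fit 577 and 583 of 3350. The median of all mutants was −2.40 in the UPTAG fit and −0.61 in the DNTAG fit. The calls are against 0, and the distance of the 2 strains from this bulk was not tested.

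**Figure D5:**
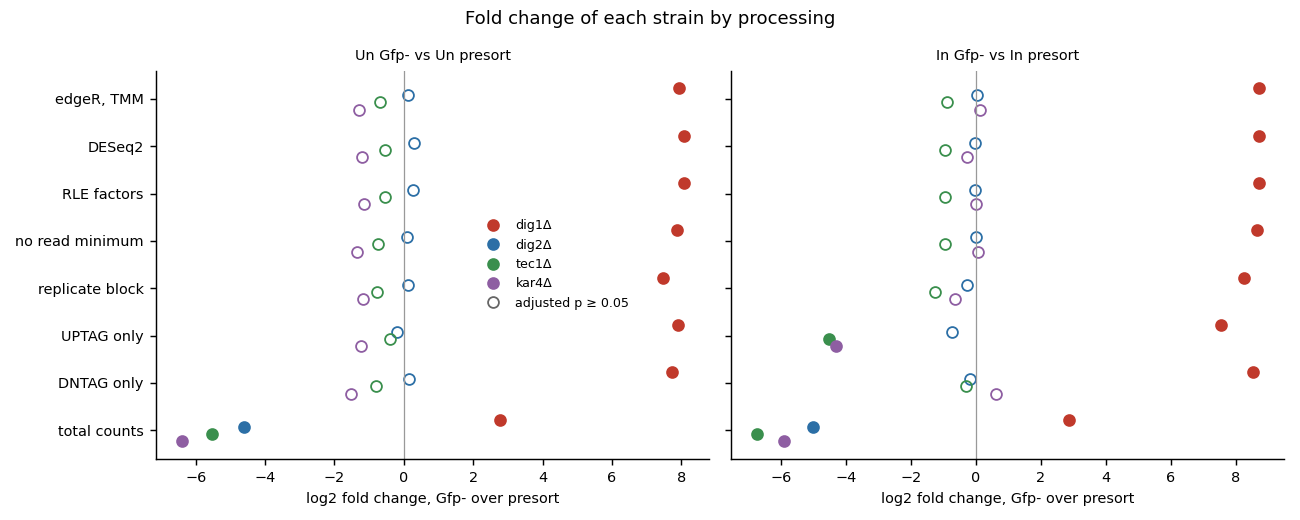
Log2 fold change (Gfp- over presort) of each strain under 8 ways of processing the counts, for the uninduced (left) and induced (right) pools, with filled symbols for an adjusted p under 0.05. *dig1*Δ is called under all 8 in both panels. From UPTAG counts *tec1*Δ and *kar4*Δ are called lower in the induced pool (−4.53 and −4.31), as are 1610 of 3455 mutants. Under total counts *dig2*Δ, *tec1*Δ, and *kar4*Δ are called lower in both panels, as are 93.7% of all mutants.

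No difference between the treated and untreated pools before sorting passed the test for any of the 4 strains. Between In presort and Un presort the log2 fold changes were 0.19 for *dig1*Δ (SE 0.192), −0.07 for *dig2*Δ (SE 0.153), −0.05 for *tec1*Δ (SE 0.157), and −0.33 for *kar4*Δ (SE 0.216), each with an edgeR adjusted p of 1.00, and the replicates of the 2 groups overlapped for all 4. None of the 3555 mutants passed this comparison in edgeR (0%, with 37 at an unadjusted p under 0.05) or in DESeq2 (26 unadjusted).

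In Gfp- and Un Gfp- were also compared directly. The log2 fold changes were 0.77 (*dig1*Δ), −0.35 (*dig2*Δ), −0.61 (*tec1*Δ), and 0.19 (*kar4*Δ), with SE of 0.928 to 1.33 and an edgeR adjusted p of 0.999 for each. The replicates overlapped for all 4 strains, and 0.148% of 3385 mutants were called (1 higher and 4 lower). With a replicate block 40 were called higher and 8 lower, and *dig1*Δ was at 0.85 (SE 0.357, edgeR adjusted p = 0.432). As the difference of the enrichments, tested as an interaction over 12 libraries, *dig1*Δ was at 0.84 (SE 1.08), *dig2*Δ at −0.06 (SE 0.783), *tec1*Δ at −0.17 (SE 0.706), and *kar4*Δ at 1.43 (SE 0.851). The edgeR adjusted p was 0.592 for *kar4*Δ and 0.885 to 0.990 for the others. No mutant of 3412 passed this test in edgeR (0%, with 342 at an unadjusted p under 0.05), whereas DESeq2 called 29 higher and 68 lower. The enrichment of *dig1*Δ with and without α-factor thus differed by less than its error, and an SE above 1 leaves room for a difference of several fold.

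The other genes of the pathway give the setting for these values. Of 18 pheromone pathway genes, 12 had enough reads. In the sorted pools 8 (Un) and 9 (In) were called higher, beside 12.2% and 15.2% of all mutants tested. None was called lower, and the medians were 7.20 and 5.91 on the log2 scale. With total counts 7 (Un) and 5 (In) were called higher, beside 116 of 3414 and 119 of 3553 mutants tested. In each comparison 5 were called lower, as were 93.7% of all mutants. With TMM and without replicate 1 the calls in In Gfp- numbered 5. The strains of *STE12*, *STE18*, and *MCM1* were among those that could not be tested, so Ste12, the partner of all 4 regulators, has no value here. The highest fold change in Un Gfp- was that of *ste7*Δ (9.39, SE 1.10, edgeR adjusted p = 0.000450) and in In Gfp- that of *ste5*Δ, which lacks the scaffold of the cascade (9.50, SE 1.13, edgeR adjusted p = 1.18e-05). Among strains that lack a negative regulator, *gpa1*Δ, listed for the G protein α-subunit that restrains the pathway, was called higher in both pools, at 9.19 and 9.42 (SE 0.999 and 1.10, edgeR adjusted p = 0.000402 and 1.18e-05). Loss of *GPA1* is known to arrest haploid cells, and the identity of the cells behind this barcode was not checked. The smallest change of a called strain was that of *ste2*Δ, lacking the α-factor receptor, which passed in In Gfp- (2.15, SE 0.494, edgeR adjusted p = 0.00403) and not in Un Gfp- (0.68, adjusted p = 0.306). With total counts its sign turned, to −3.56 in In Gfp- (edgeR adjusted p = 0.000307), still above the median of all mutants, −6.17. The strain lacking Msg5, a phosphatase that inactivates the MAP kinases, did not pass, at 0.35 in Un Gfp- and 1.20 in In Gfp- (edgeR adjusted p = 0.531 and 0.176).

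No strain of the filamentation list, the genes around Tec1, was called higher in either pool with all replicates, and 1 was in In Gfp- without replicate 2. Of 11 genes, 9 were tested in Un Gfp- and none was called, where 12.2% of all mutants were called higher, with a median log2 fold change of −0.23 against −0.55 for all mutants. In In Gfp-, where 15.2% of all mutants were called higher and 10.1% lower, 10 were tested. Only *msb2*Δ, lacking a mucin-like sensor of the filamentation pathway, was called lower. It had 620 reads in In presort and none in In Gfp-, and this call was lost without any of the replicate numbers and with the replicate block. With total counts all of the 9 and 10 strains tested were called lower, as were 93.7% of all mutants in each comparison. The tested strains lacking transcription factors of this list were not called in either comparison. They were *flo8*Δ (0.40 and 0.07), *phd1*Δ (0.12 and 0.09), and *mga1*Δ (−0.59 and −0.76), and the edgeR adjusted p ranged from 0.326 to 0.916. *sok2*Δ had too few reads to be tested.

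Of 9 genes of karyogamy and of the Kar4 methylation complex, 6 were tested. Over all mutants tested, 12.2% (Un) and 15.2% (In) were called higher. Of the 6, only *prm2*Δ, which lacks a pheromone-regulated membrane protein, was called. Its log2 fold change was 6.18 (SE 0.575, edgeR adjusted p = 0.000402) in Un Gfp- and 6.35 (SE 0.831, adjusted p = 1.97e-05) in In Gfp-. With total counts it was at 1.26 and 0.69, and only the former was called. *PRM2* (YIL037C) is on the left arm of chromosome IX. Several other strains of that arm are among the top In Gfp- strains the paper lists. Whether strains of genes near *PRM2* share its enrichment was not tested here. The strains of *MUM2* and *SLZ1*, which encode partners of Kar4 in the mRNA methylation complex, were at −1.74 and −1.01 in Un Gfp- and at −2.81 and −1.56 in In Gfp-, and none of these passed (edgeR adjusted p = 0.0661 to 0.188). *kar5*Δ, defective in nuclear membrane fusion, was at 1.01 and −0.25 (adjusted p = 0.156 and 0.719). The 4 *SIR* silencing strains lose haploid-specific expression, *sir1*Δ in only part of its cells per the paper. All 4 were called higher in both pools, under TMM and under total counts, with a TMM median of 9.43 in In Gfp-. All list counts for Un Gfp- were 0 without replicate 1 or replicate 2, as was the number of calls over all mutants.

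The mutants whose profile was most like each strain were taken by Pearson correlation of log2 CPM (TMM scaling) over the 12 libraries, among 3411 others. For *dig1*Δ these were the strains of *VBA5* (r = 0.999), *PUS1*, and *ARR1*, which were themselves enriched by 6.84 to 7.34 in Un Gfp- and 7.59 to 7.96 in In Gfp-, and 312 mutants had r above 0.9. For *dig2*Δ they were *FAR3* (r = 0.995), *NPP2*, and *HOS4*, for *tec1*Δ *PIG2* (r = 0.973), YLR125W, and *SED4*, and for *kar4*Δ *DAS2* (r = 0.968), *THI6*, and *SIP18*. Of these 9, only *sed4*Δ was called, at −1.22 in Un Gfp- (edgeR adjusted p = 0.0406). Among the 4 strains themselves r was highest for *dig2*Δ with *tec1*Δ (0.71) and lowest for *dig1*Δ with *tec1*Δ (−0.67). The points share libraries and depth, so these correlations are descriptions.

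The strains of the neighbouring genes, by their order in the R64 assembly, did not share the enrichment of *dig1*Δ. *cam1*Δ, the tested neighbour of *DIG1* on chromosome XVI, was at −1.58 in Un Gfp- and −1.44 in In Gfp- (edgeR adjusted p = 0.0589 and 0.0943), and the strain of *MNN9* on the other side had no reads. The neighbours of *DIG2* on chromosome IV, *pex29*Δ and *pho8*Δ, were at −3.25 and −1.66 in Un Gfp- and both at −0.46 in In Gfp-, without a call. Next to *KAR4* on chromosome III, *pex34*Δ was called lower in In Gfp- (−1.90, SE 0.634, edgeR adjusted p = 0.0375) and not in Un Gfp- (−1.27, adjusted p = 0.184). Next to *TEC1* on chromosome II, *mis1*Δ had 234 reads in Un presort and none in Un Gfp-, and was not called in either comparison.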

How the data were processed

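Per the labels and methods, 12 pools (4 groups of 3 replicates) gave 24 UPTAG or DNTAG libraries. The authors aligned the barcode reads with Bowtie2 to a reference of known barcodes, counted them in R, and deposited raw read counts per deletion mutant and tag. Of 48 columns of the table, 24 were used and 24 of other or unpaired sorted pools were not. A table of the R64 assembly served for gene names (5651 of 6128 mutants matched) and for the order of neighbouring genes. Tags were summed per replicate. Tests between groups used R 4.3.3 and edgeR 4.0.16 (quasi-likelihood, TMM, Benjamini-Hochberg adjustment over all mutants tested, threshold 0.05) and took in mutants that averaged 50 or more presort reads. The SE printed with a log2 fold change is its absolute value divided by the square root of the edgeR F statistic. DESeq2 1.42.0, other scalings, no minimum, single tags, left-out libraries, and a replicate block were alternatives. The share relative to the median mutant was added after the data were seen. The tests were tried on simulated counts in which few mutants changed, equally often up and down. In the Gfp- pools most mutants lost share, so the simulation does not show how the tests perform there. Named were the 4 strains, listed strains that were called with the largest and smallest fold change, kinases, scaffold, and transcription factors, the 3 most similar mutants, and the nearest gene on each side. Beyond this rule, *gpa1*Δ, *msg5*Δ, *ste50*Δ, *mum2*Δ, *slz1*Δ, and *kar5*Δ were named after their values were seen. Ratios of reads within a library were also chosen then. The strains and gene lists were chosen with earlier results of these data known. Figures were drawn with matplotlib 3.10.9.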

Additional observations from a re-analysis of the deposited data

How the results depend on the processing

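The call of *dig1*Δ in In Gfp- held under all 16 alternatives, and in Un Gfp- under 14 of 16. It was lost without replicate 1 and without replicate 2, and leaving out libraries gave 7.29 to 8.63 in Un Gfp-. With total counts in place of TMM, *dig2*Δ, *tec1*Δ, and *kar4*Δ were called lower, at −4.61, −5.53, and −6.41 in Un Gfp- and −5.02, −6.77, and −5.92 in In Gfp-, and *kar4*Δ turned to −1.29 between the Gfp- pools. This scaling moves the bulk of mutants with them. Total counts called 116 mutants higher and 3199 lower in Un Gfp- (416 and 180 with TMM) and 119 higher and 3330 lower in In Gfp- (540 and 359), so that higher calls were 3.50% and 3.45% of all calls in place of 69.8% and 60.1%. With RLE factors that share was 77.6% in Un Gfp- and 47.2% in In Gfp-, and with DESeq2, which changes the test as well, 56.9% and 42.8%.

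In In Gfp- *dig2*Δ changed sign near 0, at −0.04 with DESeq2, −0.03 with RLE factors, 0 without the minimum, −0.73 from UPTAG and −0.19 from DNTAG counts, and *kar4*Δ was at −0.27 with DESeq2. UPTAG counts alone gave −4.53 for *tec1*Δ and −4.31 for *kar4*Δ in In Gfp-, both called lower, as were 1610 of 3455 mutants. In Un Gfp- they gave −0.20 for *dig2*Δ. For the interaction UPTAG counts gave −0.33 (*dig1*Δ), −4.02 (*tec1*Δ, called), and −2.97 (*kar4*Δ). That fit called 323 of 3339 mutants lower and 9 higher, and its median over all mutants was −0.94. Between the Gfp- pools UPTAG counts gave 0.10 (*dig2*Δ) and −3.08 (*kar4*Δ). DNTAG counts alone gave 0.55 for the interaction of *tec1*Δ, 0.03 for *tec1*Δ between the Gfp- pools, and −0.45 for *dig1*Δ between the presorts. The cause of the difference between tags was not tested.

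Leaving out libraries moved *dig2*Δ between −0.38 and 0.59 and *kar4*Δ between −2.57 and 0.60 in In Gfp-. The interactions ranged from −0.32 to 1.54 (*dig1*Δ), −0.66 to 0.52 (*dig2*Δ), −1.44 to 0.13 (*tec1*Δ), and −1.62 to 1.96 (*kar4*Δ). The presort comparison ranged from −0.25 to 0.05 (*dig2*Δ) and −0.18 to 0.08 (*tec1*Δ), and that of the Gfp- pools from −1.12 to 0.33 (*dig2*Δ) and −1.85 to 0.93 (*kar4*Δ).

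Apart from the instrument, the labels do not say what a replicate number shares. Deviations from the group means of same-numbered sorted and presort libraries correlated at 0.239, −0.00197, and 0.290 (Un) and −0.0505, −0.0776, and 0.0599 (In), so the numbers were not taken as pairs. Between Un presort and In presort the same-numbered values were 0.553, −0.597, and −0.616. Un presort replicate 2 with In presort replicate 3 gave 0.657, and Un presort replicate 3 with In presort replicate 2 gave 0.799. Between the Gfp- pools the same-numbered values were −0.00337, 0.191, and 0.372. A replicate block gave 7.48 and 8.27 for *dig1*Δ, changed no call of the 4 strains, and turned *dig2*Δ to −0.28 and *kar4*Δ to −0.64 in In Gfp- and *kar4*Δ to −0.11 between the Gfp- pools. It left 98 lower calls in Un Gfp- and 316 higher and 12 lower in In Gfp-. Leaving out libraries gave 0 to 575 higher and 0 to 366 lower calls in Un Gfp-, and 198 to 600 and 0 to 405 in In Gfp-. Lower calls were 406 and 697 with DESeq2, and in In Gfp- 633 with RLE factors, 1610 from UPTAG and 577 from DNTAG counts. With 0 to 10 reads of *dig2*Δ, *tec1*Δ, and *kar4*Δ in In Gfp- replicates 2 and 3, the read numbers limit the precision of their values.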
